A study of Mus musculus with 2 samples.

Results

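A run of genes at the far end of mouse chromosome 4 was followed in CD4 T cells of visceral adipose tissue: Samd11, Noc2l, Mxra8, Aurkaip1, Ccnl2, Mrpl20, Ssu72, Sdf4, Ube2j2 and Tnfrsf14. They are 10 of the 32285 genes counted. They were chosen by their ratio between the 2 libraries (Samd11, Mxra8 and Tnfrsf14) or as neighbours of those, so every ratio below is a description without a test. The data are 2 droplet single-cell RNA libraries of C57BL/6 mice, 1 titled WT and 1 titled CD27_KO from CD27-/- mice, which lack the T cell costimulator CD27. TCRb+ CD4+ cells were sorted from the fat's non-adipocyte cells (the stromal vascular fraction). The labels speak of 10 mice whose tissue was combined, without saying if that is 10 per genotype or 10 together. The labels give one genotype entry, C57BL/6, for both libraries, so the group rests on the title. The series design also describes crosses giving CD27+/- controls and CD11c-Cd70tg;CD27+/- mice, which neither title names. The sources used here do not give age, sex or the extent of the deletion.

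The 10 genes share a position rather than a pathway. Samd11 encodes a nuclear protein with a sterile alpha motif, known from photoreceptors. Mxra8 encodes a surface protein that serves as entry receptor of several alphaviruses, and Tnfrsf14 encodes HVEM, a TNF receptor family member of lymphocytes that binds LIGHT, BTLA and CD160. The rest are genes that most cells use: Noc2l acts in the nucleolus, Mrpl20 and Aurkaip1 in the mitochondrial ribosome, Ccnl2 with splicing kinases, Ssu72 as a phosphatase of RNA polymerase II, Ube2j2 in the degradation of misfolded proteins at the endoplasmic reticulum, and Sdf4 as a calcium-binding protein of the Golgi. Neighbouring genes can differ together between mouse stocks when a stretch of DNA of another strain has stayed with one of them through crossing. The deposited matrices hold counts and no base calls, and whether these genes lie on DNA of another strain in the CD27_KO mice was not tested.

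In mm10 coordinates (GENCODE vM21) the genes run from Tnfrsf14 (154921933 to 154928563, minus strand) to Samd11 (156246966 to 156255657, minus strand), a span of 1334 kb. Between them, all on the plus strand, lie Ssu72 (155704800 to 155733879), Mrpl20 (155802878 to 155809975), Ccnl2 (155812489 to 155824543), Aurkaip1 (155831272 to 155833130), Mxra8 (155839680 to 155844088), Ube2j2 (155943831 to 155959604), Sdf4 (155992872 to 156013610) and Noc2l (156236010 to 156247616). Samd11 and Noc2l run toward each other and share 651 bases at their ends, on opposite strands.

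The sequence before the start of each gene shows how unlike these neighbours are. RefSeq (GRCm38.p6) gave promoter entries for 9 of the 10 genes, the exception being Aurkaip1. Shown are the 3 genes with the largest ratios and, for contrast, Noc2l and Ccnl2, 5′ to 3′ on the gene's own strand and without bases that GENCODE counts as exons of the gene. Capitals mark matches, on either strand, to any of 8 motifs searched: the TATA box (TATAAA), the CCAAT box of factor NF-Y (spelled CCAAT), the GC box of Sp1 (GGGCGG), the ETS factor core (CCGGAA), the E-box (CACGTG), the site of AP-1 (TGACTCA), the GATA factor site (GATAAG) and the RUNX site (TGTGGT).
Samd11: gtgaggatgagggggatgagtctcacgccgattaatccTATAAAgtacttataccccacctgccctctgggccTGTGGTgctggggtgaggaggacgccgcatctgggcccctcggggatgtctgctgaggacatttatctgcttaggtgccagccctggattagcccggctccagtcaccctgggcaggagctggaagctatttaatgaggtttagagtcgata
Mxra8: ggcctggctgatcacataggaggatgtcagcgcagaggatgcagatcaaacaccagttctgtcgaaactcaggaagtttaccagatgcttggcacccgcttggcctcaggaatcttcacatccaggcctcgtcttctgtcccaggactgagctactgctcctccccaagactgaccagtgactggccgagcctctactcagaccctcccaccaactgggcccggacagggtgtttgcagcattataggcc
Tnfrsf14: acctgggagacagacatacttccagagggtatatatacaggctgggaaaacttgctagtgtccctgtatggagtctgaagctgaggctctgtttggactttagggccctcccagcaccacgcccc
Noc2l: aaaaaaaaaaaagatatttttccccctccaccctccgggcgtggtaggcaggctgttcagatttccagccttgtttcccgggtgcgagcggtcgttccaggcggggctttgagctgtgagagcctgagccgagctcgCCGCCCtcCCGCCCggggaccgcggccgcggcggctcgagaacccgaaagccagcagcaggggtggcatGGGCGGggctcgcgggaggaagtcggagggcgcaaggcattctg
Ccnl2: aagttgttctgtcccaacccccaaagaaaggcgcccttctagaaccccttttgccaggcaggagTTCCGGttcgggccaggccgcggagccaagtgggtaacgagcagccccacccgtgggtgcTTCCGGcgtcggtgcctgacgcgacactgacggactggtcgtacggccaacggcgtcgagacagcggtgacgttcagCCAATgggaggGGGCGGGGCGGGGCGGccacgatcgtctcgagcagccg
These are chr4:156255343-156255567 (minus strand), chr4:155839430-155839679 (plus), chr4:154928203-154928327 (minus), chr4:156235760-156236009 (plus) and chr4:155812239-155812488 (plus). The stretches of Samd11 and Tnfrsf14 lie inside the gene's span in GENCODE, between exons. The stretch of Samd11 held 1 TATA box and 1 RUNX motif, and those of Mxra8 and Tnfrsf14 held none of the 8 motifs. Noc2l held 3 GC boxes, and Ccnl2 held 3 overlapping GC boxes, 2 ETS cores and 1 CCAAT box. Over the 250 bases before the start, 12.4% of 32851 RefSeq promoters hold the TATA box, 14% the RUNX motif, 32.7% the GC box, 12% the ETS core and 33.8% the CCAAT box. The shares are 6.02% for the E-box, 4.46% for AP-1 and 6.55% for GATA. CpG dinucleotides in those 250 bases numbered 8 for Samd11, 6 for Mxra8 and 2 for Tnfrsf14, against a median of 6 over all promoters. The counts of the other 6 genes were 8 for Mrpl20, 10 for Ssu72, 24 for Noc2l, 27 for Ccnl2, and, depending on the start site, 17 or 42 for Ube2j2 and 24 to 39 for Sdf4.

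After filtering, 6217 WT and 6788 CD27_KO T cells remained, with 15892094 and 19786013 unique molecular identifiers (UMIs, counted molecules) and medians of 1933 and 2200.5 per cell. T cell markers (Cd3e, Cd3d, Cd3g, Cd4, Trac) summed to 3338 and 3294 CPM (UMIs scaled to a library total of 1000000). The libraries shared 12 cell barcodes. The targeted gene Cd27, on chromosome 6, had 2077 UMIs in WT and 15 in CD27_KO T cells. Ribosomal protein genes took 33.8% and 28.7% of the UMIs, and the median log2 ratio of CD27_KO over WT was 0.17. Each genotype has a single library, so the spread between mice is unknown, and the intervals (95%, exact) cover counting error only.

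Over all T cells, Samd11, Mxra8 and Tnfrsf14 were each more than 8-fold higher in CD27_KO, while the 7 genes lying between and beside them stayed within 1.5-fold. Samd11 had 55 UMIs in WT and 1171 in CD27_KO, or 3.46 and 59.2 CPM, a ratio of 17.1 (interval 13.05 to 22.8). For Mxra8 the counts were 8 and 152 UMIs, 0.503 and 7.68 CPM, a ratio of 15.3 (7.55 to 36.0). Tnfrsf14 gave 10 and 103 UMIs, 0.629 and 5.21 CPM, a ratio of 8.27 (4.32 to 17.8). The intervals of the 2 libraries stood apart for each of these 3 genes. By rank of log2 ratio among the 9756 genes with at least 100 UMIs over both libraries, they ranked 3, 5 and 7; 7 genes in all were over 8-fold higher.

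None of the 3 differences came from a few cells. Samd11 was seen in 52 WT and 712 CD27_KO cells, with at most 2 and 10 UMIs in 1 cell. Mxra8 was seen in 8 and 144 cells and Tnfrsf14 in 10 and 101, with no more than 2 UMIs in any. To compare at equal depth, each cell was thinned to 1300 UMIs, which 536 WT and 54 CD27_KO cells did not reach. Samd11 was then seen in 0.475% of WT (interval 0.313 to 0.691) and 5.30% of CD27_KO cells (4.78 to 5.86), a log2 ratio of 3.48. The shares before thinning were 0.836% and 10.5%. For Mxra8 they were 0.0528% and 1.08% after thinning (0.129% and 2.12% before), and for Tnfrsf14 0.0704% and 0.713% (0.161% and 1.49%). Cells of other types, left out here, held 10 WT and 3 CD27_KO UMIs of Mxra8, and with every barcode taken in its log2 ratio was 2.83 in place of 3.93.

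The other 7 genes differed by less than 1.5-fold between the libraries. Ccnl2 was the highest of them, with 1163 and 2024 UMIs, 73.2 and 102 CPM, a log2 ratio of 0.48 (0.38 to 0.59). Its partner kinase gene Cdk11b, also on distal chromosome 4, was at 0.37 (0.29 to 0.45). Noc2l was the lowest, with 717 and 760 UMIs, 45.1 and 38.4 CPM, a log2 ratio of −0.23 (−0.38 to −0.08). Mrpl20 had 1568 and 1681 UMIs, a log2 ratio of −0.22 (−0.32 to −0.12). The counts were 1931 and 2347 UMIs for Ssu72 (log2 −0.03), 1021 and 1303 for Ube2j2 (0.04), 3091 and 4027 for Sdf4 (0.07) and 1701 and 2238 for Aurkaip1 (0.08). The intervals of these 4 ratios span 0, whereas those of Ccnl2, Noc2l and Mrpl20 do not. So 3 of 10 genes were past 1.5-fold, against 9.97% of all 9756 genes, a count that the choice of genes fixes. The median of the 10 log2 ratios was 0.07, below that of all genes (0.17).

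**Figure D1:**
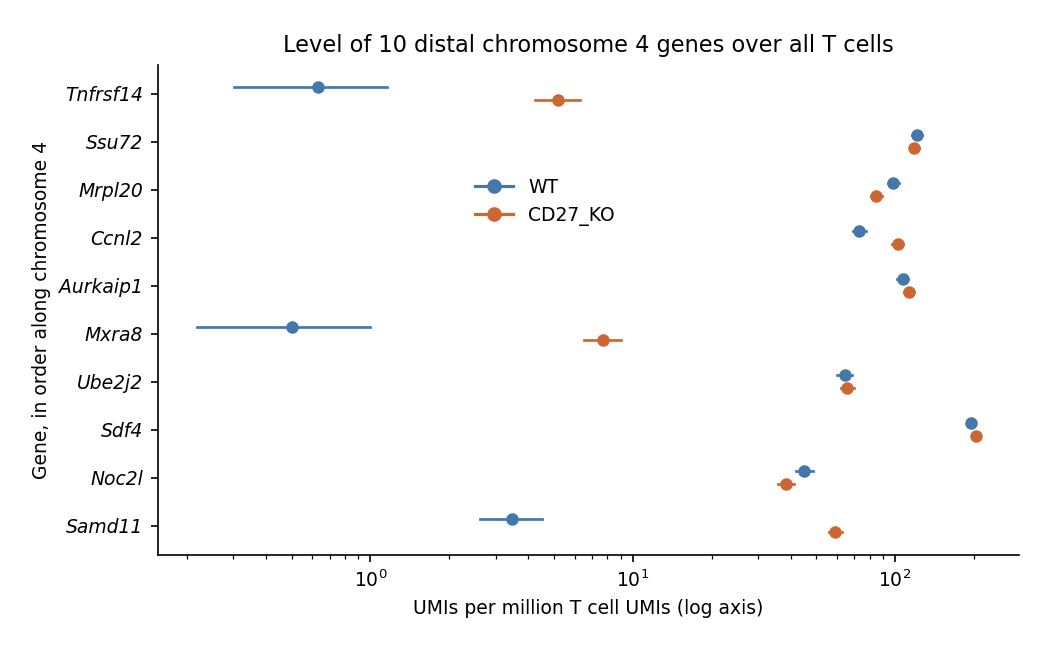
CPM over T cell UMIs (log axis) of the 10 genes in order along the chromosome, in the WT and CD27_KO libraries, with 95% exact Poisson intervals. The 2 libraries stand far apart for Samd11, Mxra8 and Tnfrsf14 and lie close together for the 7 other genes.

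Reads of some of these genes may have other origins. In the last 300 bases of its transcripts, stretches of at least 60 bases at 95% identity on the same strand occur in 7 other genes for Samd11, 46 for Tnfrsf14, 229 for Mrpl20, 6 for Noc2l and 1 for Ube2j2, whose counts are uncertain to that extent. Mxra8, Ccnl2, Aurkaip1, Ssu72 and Sdf4 had no such match. The sources used here do not say whether counting used the strand. Without it, reads from the shared ends of Samd11 and Noc2l could not be told apart. Cells with UMIs of both Samd11 and Noc2l numbered 11 in WT and 112 in CD27_KO. They were 1.735% of WT and 16.59% of CD27_KO cells with Noc2l. Samd11 was seen in 0.836% and 10.5% of all T cells of these libraries. In CD27_KO it was also seen in 15.28% of cells with Mxra8 and 11.88% of cells with Tnfrsf14, genes that do not overlap it. Whether shared reads, or a greater depth of cells with Noc2l, add to the cells with both was not tested.

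The next question was whether the 3 genes move together across T cell states. States came from joint clustering without any gene of the last 5 Mb of chromosome 4, and 7 of them had at least 200 cells in each library. These were naive-like cells, which carry Ccr7 for lymph node homing and Dapl1, Treg-like cells (Foxp3, Ctla4, Ikzf2), Th2-like cells (Il4, Calca, Csf2), Th1-like cells (clusters 0 and 3, led by Ly6c2 and Ccl5 in one and P2rx7 and Mmp9 in the other), and 3 clusters without a name. Cluster 1 was led by Gpm6b, Slamf6 and Cd200, cluster 2 by Slamf1 and Il18r1 with many UMIs per cell, and cluster 5 by Bcl2a1d and Bcl2a1b. Most WT Th1-like cells lay in cluster 0 (732 of 1333) and most CD27_KO ones in cluster 3 (1879 of 2443). In the Treg-like class, cluster 9 held 878 of 1115 WT cells and cluster 8 held 200 of 324 CD27_KO cells. In the Th2-like class, cluster 6 held most cells of both libraries.

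The level of Samd11 differed between T cell states. In CD27_KO it ran from 5.76 CPM in naive-like cells (4 UMIs, interval 1.57 to 14.7) and 13.7 in cluster 1 (6.57 to 25.2) to 25.1 in Th1-like cells (20.9 to 29.8), 48.2 in cluster 2 (40.0 to 57.6), 58.1 in Treg-like cells (42.5 to 77.5), 66.7 in cluster 5 (55.5 to 79.6) and 106 in Th2-like cells (98.2 to 115). The intervals of naive-like cells and cluster 1, of cluster 1 and Th1-like cells, and of cluster 2, Treg-like cells and cluster 5 overlap, whereas Th2-like cells stood above the other 6 states. Among states with fewer cells, CD27_KO NK receptor-like cells had 78.8 CPM (55.5 to 109; 37 UMIs) and Th17-like cells 78.3 (47.9 to 121; 20 UMIs), whose intervals reach that of Th2-like cells. In WT, no Samd11 UMI was found in 1327 naive-like cells, where 3 counts would be 1.12 CPM and the exact interval reaches 1.38. The levels were 1.85 CPM in Th1-like cells, 1.94 in cluster 5, 2.47 in cluster 2 and 2.58 in cluster 1, then 5.78 in Treg-like (3.42 to 9.13) and 8.60 in Th2-like cells (4.70 to 14.4). Of the 7 states, Th2-like cells were thus highest and naive-like cells lowest in each library, although most WT intervals overlap: that of Th2-like cells reaches those of Treg-like cells and clusters 1, 2 and 5, and that of naive-like cells those of Th1-like cells and the 3 clusters.

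As shares of thinned cells, Samd11 was seen in 10.4% of CD27_KO Th2-like cells (8.92 to 12.1) and 2.02% of WT ones (0.876 to 3.94), or 22.8% and 3.46% before thinning. In naive-like cells the shares were 0.309% (0.00781 to 1.71) and 0 of 1260 (exact interval up to 0.292%), with median depths of 2074 and 1863 UMIs against 3000 and 2905 in Th2-like cells. Th2-like cells also made up 22.1% of CD27_KO and 6.51% of WT T cells. When states were weighted alike in the 2 libraries, the log2 ratio of Samd11 was 3.70 in place of 4.10.

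The ratio of Samd11 within states is given for the 5 with at least 20 UMIs, a minimum reached through the CD27_KO counts, so its direction there is fixed by the choice. The log2 ratios were 3.33 in Treg-like cells (2.52 to 4.20; 18 and 46 UMIs), 3.63 in Th2-like cells (2.87 to 4.51; 14 and 646), 3.76 in Th1-like cells (2.50 to 5.40; 5 and 128), 4.29 in cluster 2 (3.02 to 5.94; 5 and 121) and 5.11 in cluster 5 (2.60 to 10.4; 1 and 124). All 5 intervals overlap one another, so a difference in ratio between states was not detectable at this depth. Outside the T cells, the 121 WT cells of other types held no Samd11 UMI, where 3 counts would be 4.43 CPM. The 65 such CD27_KO cells held 11, or 29.9 CPM. Whether free RNA in the droplets adds to these counts was not tested.

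**Figure D2:**
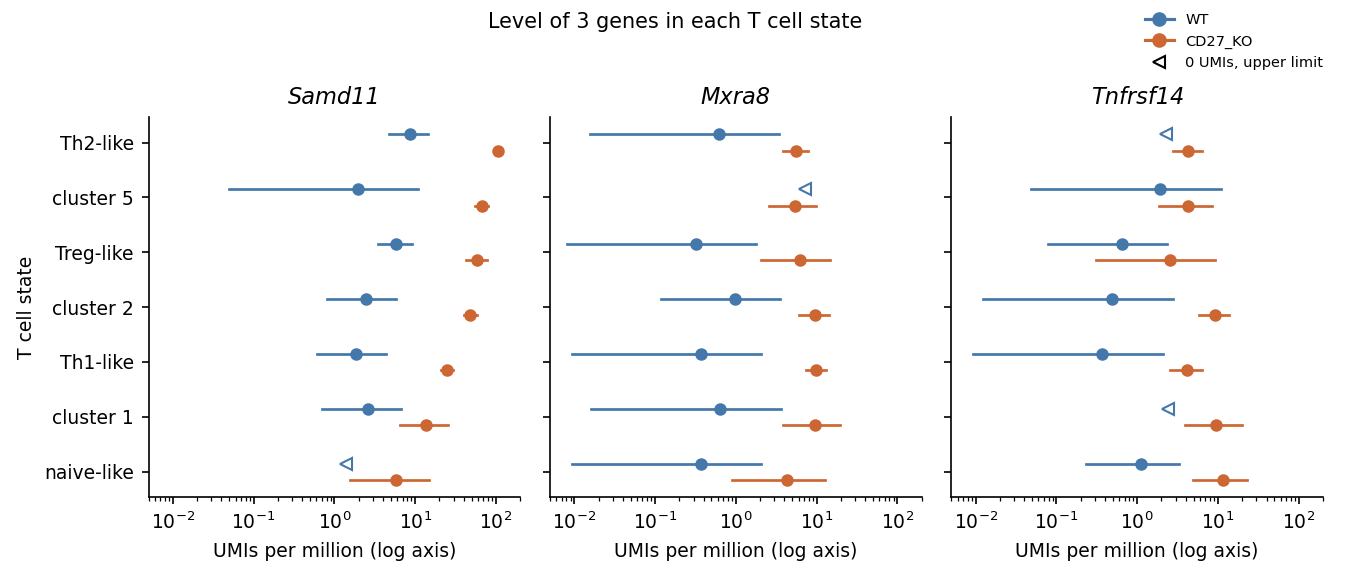
CPM (log axis) of Samd11, Mxra8 and Tnfrsf14 in 7 T cell states, in WT and CD27_KO, with 95% exact Poisson intervals; open triangles mark the upper limit where a state held 0 UMIs. The states are drawn in rising order of the CD27_KO level of Samd11, so that order fixes its climb. In the same order, the CD27_KO level of Mxra8 shows no steady rise.

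Mxra8 and Tnfrsf14 showed another distribution over the states. In CD27_KO, Mxra8 lay between 4.32 CPM in naive-like cells (3 UMIs, 0.891 to 12.6) and 10.0 CPM in Th1-like cells (51 UMIs, 7.44 to 13.1), with 5.59 in Th2-like cells (34 UMIs, 3.87 to 7.82), and the intervals of all 7 states overlap. Its log2 ratio was 4.75 in Th1-like cells (2.21 to 10.1; 1 and 51 UMIs), 3.19 in Th2-like cells (0.61 to 8.53; 1 and 34 UMIs) and 3.28 in cluster 2. Tnfrsf14 was at 11.5 CPM in naive-like cells of CD27_KO (8 UMIs, 4.97 to 22.7), 9.59 in cluster 1, 9.17 in cluster 2 (23 UMIs), 4.28 in Th2-like cells (26 UMIs, 2.79 to 6.27) and 2.53 in Treg-like cells (2 UMIs). Its log2 ratio was 4.21 in cluster 2 (1.59 to 9.58; 1 and 23 UMIs) and 3.47 in Th1-like cells (0.84 to 8.84; 1 and 21 UMIs). Th2-like cells had 0 and 26 UMIs, a ratio of 2.32 when 3 counts are set for WT, and the exact interval starts at 1.76. In the remaining 4 states these 2 genes had fewer than 20 UMIs and no ratio is given. The minimum was reached through the CD27_KO counts, so the direction of the ratios shown is fixed by the choice. Among the 7 states the highest CD27_KO level fell in Th2-like cells for Samd11, in Th1-like cells for Mxra8 and in naive-like cells for Tnfrsf14, and only for Samd11 was the top interval clear of the other 6. In states with fewer cells, Mxra8 had 27.4 CPM in Th17-like cells (7 UMIs) and 26.2 in interferon response-like cells (4 UMIs).

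Few cells had UMIs of more than one of the 3 genes, as each was seen in few cells. Of 144 CD27_KO cells with Mxra8, 22 had Samd11 too (15.3%), against 10.5% of all CD27_KO T cells, and the Mxra8 cells were deeper, with a median of 2966 UMIs against 2200.5. Of 101 cells with Tnfrsf14, 12 had Samd11 (11.9%) and 6 had Mxra8, which was seen in 2.12% of all CD27_KO T cells.

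The other 7 genes of the set were within 1.5-fold in most states. Ssu72, Aurkaip1, Ube2j2 and Sdf4 were within 1.5-fold in each of the 7 states, from −0.37 (Aurkaip1, cluster 5) to 0.44 (Sdf4, naive-like) on the log2 scale. The log2 ratio of Ccnl2 ran from 0.20 in cluster 5 (−0.29 to 0.72) to 0.85 in cluster 1 (0.42 to 1.27) and 0.93 in naive-like cells (0.48 to 1.36), past 1.5-fold in those last 2. Mrpl20 was past 1.5-fold lower in naive-like cells (−0.68, −1.23 to −0.17, on 223 and 36 UMIs) and Noc2l in Treg-like cells (−0.69, −1.39 to −0.05, on 146 and 23 UMIs). Over the whole set, 3 of 10 genes with a ratio were past 1.5-fold in either direction in Th1-like cells (15.5% of all genes with 20 UMIs), 3 of 10 in Th2-like cells (15.6%) and 3 of 10 in cluster 2 (16.7%). The counts were 2 of 8 in Treg-like cells (22%), 1 of 7 in cluster 1 (19.6%), 1 of 8 in cluster 5 (24.6%) and 2 of 7 in naive-like cells (26%).

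**Figure D3:**
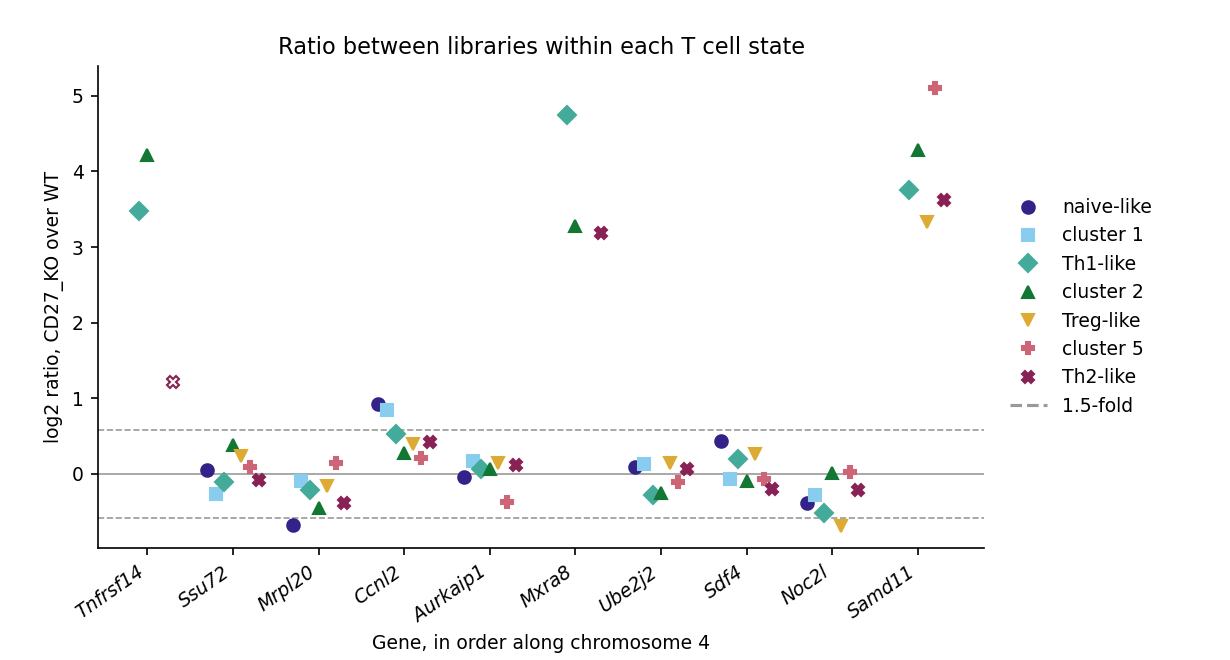
log2 ratio of CD27_KO over WT for each gene within each of 7 T cell states, where the gene had at least 20 UMIs. The open symbol is a ratio with 3 counts set in place of 0 WT UMIs, and dashed lines mark 1.5-fold. Samd11, Mxra8 and Tnfrsf14 lie above the upper line in every state shown, and the 7 others lie mostly between the lines. Of these, Ccnl2 is above 0 in every state, and Mrpl20 and Noc2l are below 0 in most. Samd11, Mxra8 and Tnfrsf14 reach the 20 UMIs mainly through the CD27_KO counts, so their direction is fixed by the choice.

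The stretch was then followed gene by gene. The last 5 Mb of chromosome 4 hold 120 counted genes, 57 of them with at least 100 UMIs. Among the 47 of these that are not in the set, 9 were past 1.5-fold (19.1%, against 9.97% of all genes), 4 higher and 5 lower, with a median log2 ratio of 0.16. With the median gene set to a ratio of 1 the split was 1 higher and 6 lower. None was near the values of the 3. The higher ones included Icmt (log2 0.60), Plekhn1 (0.60) and Acap3 (0.59). The lowest was Espn, an actin-bundling protein gene, at −1.42 (172 and 80 UMIs), and the other lower ones were Tnfrsf4 (−0.96), the gene of the costimulatory receptor OX40 with 3479 and 2224 UMIs, C1qtnf12 (−0.93), Pusl1 (−0.88) and Acot7 (−0.60).

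The measured neighbours of the 3 outlying genes did not share their ratios, and past Samd11 no gene had 100 UMIs. Beside Mxra8, the next measured genes were Aurkaip1 (0.08) and Dvl1, a Wnt signalling gene (0.24, −0.11 to 0.59). Beside Tnfrsf14 were Prxl2b (−0.18, −0.75 to 0.40) and Pank4 (0.19, −0.16 to 0.54). Noc2l (−0.23) overlaps Samd11, and Plekhn1 (0.60, 0.22 to 0.97) comes before Noc2l. Next to others of the set, Fndc10 was at 0.55, Atad3a at −0.14 and B3galt6 at 0.33. Below the minimum of 100 UMIs lay Arhgef16, a guanine nucleotide exchange factor gene (154278486 to 154301676) singled out after its values were seen. It had 0 UMIs in WT and 49 in 48 CD27_KO cells. Its ratio was 13.1 when 3 counts are set for WT, and the exact interval starts at 10.3.

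**Figure D4:**
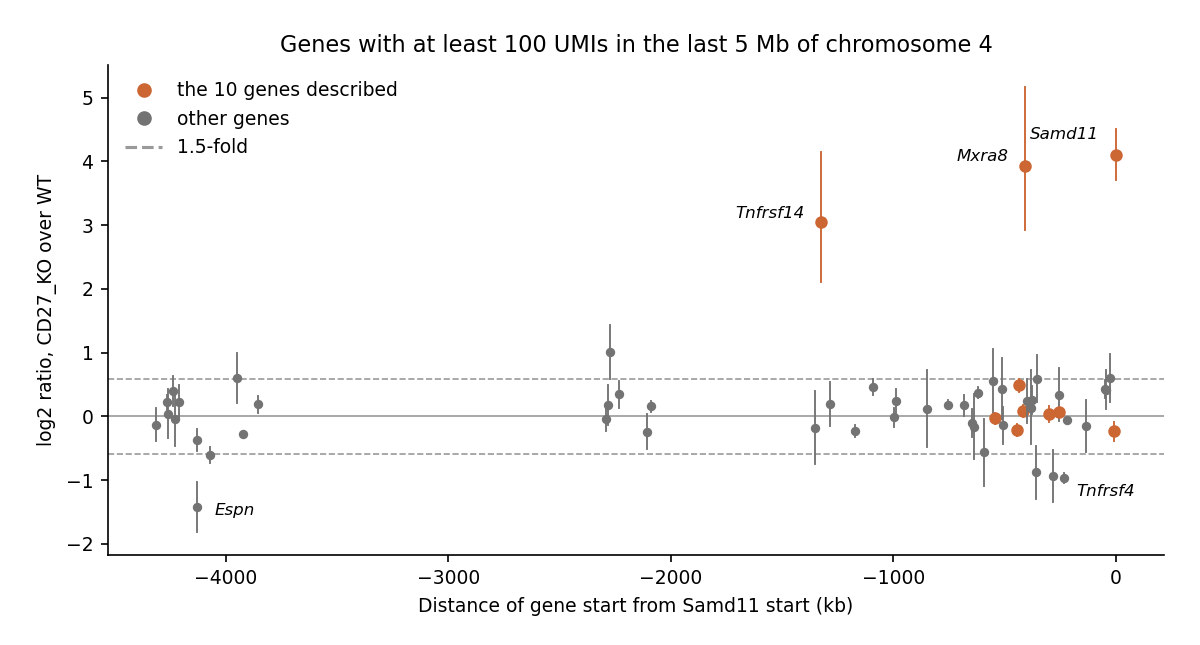
log2 ratio of CD27_KO over WT, with 95% exact intervals, of the 57 genes with at least 100 UMIs in the last 5 Mb of chromosome 4, by distance of the gene start from that of Samd11 in kb; dashed lines mark 1.5-fold. Samd11, Mxra8 and Tnfrsf14 stand alone above a log2 ratio of 3, and the other genes of the set lie between the dashed lines.

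Set beside the rest of the genome, the 2 windows of the stretch ranked far apart. Of 651 windows of 2 Mb on the autosomes with at least 5 measured genes, the one holding Tnfrsf14, Mxra8 and the genes between them (34 genes, 5 past 1.5-fold, 14.7%) ranked 193 by share of genes past 1.5-fold and 333 by median absolute log2 ratio (0.23). The last window, with Noc2l and Samd11, had 3 of 8 genes past 1.5-fold and ranked 28. These counts include the 3 genes chosen by their ratio. The window of Cd27 on chromosome 6, which surrounds the deleted gene, had 5 of 31 genes past 1.5-fold (16.1%) and ranked 178. That count includes Cd27 itself. The 2 windows after it had 3 of 7 (rank 11) and 8 of 17 (rank 9). The 2 windows before it had 2 of 11 (rank 137) and 0 of 7 (rank 428). All these windows were scored over T cells of every state, and the mix of states differed between the libraries. NK receptor-like cells, for example, had a share of 5.74% in WT against 2.25% in CD27_KO. Of 7 NK receptor marker genes, 4 were counted as lower and 0 as higher. Whether the mix of states adds to the shares of these windows was not tested.

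The genes with ratios most like those of Samd11 across the named states were then listed. Of 8694 genes with at least 100 UMIs in all and a ratio in 3 or 4 of the named states compared, 51 (0.587%) were past 1.5-fold higher in each state with a ratio. Samd11 had a ratio in 3 of the 4, the smallest being 3.33, and the choice of the gene fixed that it was among them. Mxra8 and Tnfrsf14 had enough UMIs in only 2 named states. The named genes outside this stretch with the largest such values were Tmem181a (1.83), Cdk5rap1 (1.14), Dynlt1a (0.97), the sphingosine phosphate receptor gene S1pr2 (0.93) and the cytokine gene Il4 (0.91). Tmem181a and Dynlt1a are themselves neighbours on chromosome 17, with starts at 6256860 and 6306340. In the other direction the largest of the ratios was −4.91 for Cd27, −1.77 for Zfp973, −1.46 for Fam177a, −1.43 for the chemokine gene Cxcl2 and −1.30 for Tnfsf9.

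Genes that work with the 10 were compared through lists. In the HVEM network, Tnfsf14, the gene of the HVEM ligand LIGHT, was higher in CD27_KO (176 and 364 UMIs, log2 0.73), and Lta, the gene of lymphotoxin alpha, another ligand, was lower (147 and 106 UMIs, −0.79). Btla (−0.16), Cd160 (−0.23), Ltb (−0.13) and Cd5 (0.07) were within 1.5-fold. Of the 79 mitochondrial ribosome genes 1 was past 1.5-fold, Mrps2 at 0.72 on 44 and 90 UMIs, and their median was −0.02. In the polycomb repressive complex 1 list, Samd11 was the only 1 of 15 measured genes past it, with a median of 0.23. None passed it among 10 genes of cyclin L and splicing kinases (median 0.35), 13 of degradation at the endoplasmic reticulum (0.18), 18 of RNA 3′ end processing (0.16), 10 nucleolar genes (−0.03) and 5 of the calcium-binding family of Sdf4 (0.28). The median over all genes measured was 0.17, with 7.1% past 1.5-fold higher and 2.87% lower. With the median gene set to a ratio of 1, 328 genes were past it higher and 419 lower, in place of 693 and 280, and Tnfsf14 and Mrps2 would be within 1.5-fold.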

How the data were processed

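Per the file headers, the authors counted UMIs with Cell Ranger 6.1.1, and the submitters' processing notes name mm10; the deposited values are UMI counts of called cells. The labels name kit v2 in one place and v3.1 in another. Python 3.11.15, scanpy 1.11.5, igraph 0.11.9, scipy 1.17.1 and BLAST 2.17.0 were used here. The cell filter asked for 500 genes or more and no more than 10% mitochondrial UMIs (60 WT and 40 CD27_KO barcodes removed). Doublets were not removed. The libraries were clustered jointly on 2000 variable genes without receptor, ribosomal, mitochondrial, Cd27 and last-5-Mb chromosome 4 genes (30 components, 20 neighbours, Leiden resolution 1). Clusters were named by markers: 3 or more had to be enriched 1.5-fold and present in 5% of cells. A cluster stayed unnamed where a second T cell type reached 0.5 of the best median. Clusters of other cell types (121 WT and 65 CD27_KO cells) were left out. UMIs were summed per library and state; ratios carry exact conditional intervals and shares exact Clopper-Pearson intervals. Summed UMIs are taken as independent molecules. The cutoff of 1.5-fold needed at least 100 UMIs over all T cells and at least 20 in a state. The ratio, its interval and the 1.5-fold cutoff were tested on simulated gene totals with counting error only. The other steps were not tested in this way. The genes named follow a rule: the set, Cd27, window genes past 1.5-fold and measured neighbours, up to 4 per list, and the 5 furthest each way across states. Some genes that the rule names are not reported here. Members, markers and lists were chosen with earlier results of these data known.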

Additional observations from a re-analysis of the deposited data

How the results depend on the processing

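Samd11, Mxra8 and Tnfrsf14 stayed past 1.5-fold higher under each of the 7 alternatives run on their ratios over all T cells, with log2 ratios of 3.48 to 4.15, 2.83 to 4.36 and 2.75 to 3.43. The other 7 genes were past 1.5-fold under none of them. The lowest Samd11 value is the ratio of shares of thinned cells. The lowest Mxra8 value came without a cell filter, which also takes in the cells of other types; those held 10 WT and 3 CD27_KO Mxra8 UMIs. With a stricter cell filter (1000 genes or more, mitochondrial share up to 5%), 2 of the 10 genes were counted past 1.5-fold at the minimum of 100 UMIs; the log2 ratios were then 3.79, 3.46 and 2.75. At a limit of 2-fold, 5 window genes were apart in place of 12; other settings gave 9 to 17. The same 3 genes were past 1.5-fold wherever they reached 20 UMIs under Leiden resolutions of 0.6 and 1.5 and with states set by marker UMIs, where Tnfrsf14 reached it in 1 of 4; they reach it mainly through CD27_KO, so little could differ. No paired analysis was possible because each group has 1 library. Depth limits Mxra8 and Tnfrsf14, whose WT counts are 8 and 10 UMIs.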
